A study of Drosophila melanogaster with 24 samples.

Results

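Transcripts of the proteasome were followed in whole adult Drosophila melanogaster. The members were all genes whose array symbol starts with Prosalpha, Prosbeta, Rpn or Rpt followed by a digit, with 1 probe set for each gene. This gave 40 genes of 11982 named on the array. They were 10 alpha subunits, 12 beta subunits, 6 Rpt and 12 Rpn subunits. Within them, 14 are copies, whose symbol is that of another member with a T or R added. Another 10 are the parents of these copies, and 16 have no named copy on the array. A gene table of the Release 6 assembly holds 48 such symbols. Of the other 8, Prosalpha1 and Prosalpha1R share 1 probe set, and Prosbeta1, Rpn9, Rpn10, Rpt1, Rpt6 and Rpt6R have no probe set named here, so they were not analysed on their own.

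The study altered Hr96, which encodes the nuclear receptor DHR96, with GAL4-driven transgenes, and its 24 arrays form 8 groups of 3, 4 genotypes in each sex. All flies were 0 to 3 days old, carried w, and were raised on a rich diet made in 3 batches, 1 array of each group per batch. Over-expression flies were w; Act5C-GAL4/UAS:OE_Dhr96OE_35 (line 35), set against w; Act5C-GAL4/+ controls. Labelled knockdown flies were w; arm-GAL4/+; UAS:RNAi_Dhr96Hp_3/+ (line 3), set against w; arm-GAL4/+ controls. Both drivers use promoters of widely expressed genes, actin 5C and armadillo, and each transgene was tested as a single line.

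The 26S proteasome degrades proteins tagged with ubiquitin. Its 20S core is a barrel of alpha rings, which gate the entrance, and beta rings, which hold the proteolytic sites. The 19S cap recognises, unfolds and feeds in the substrate, with Rpt subunits forming the ATPase ring and Rpn subunits the scaffold, the ubiquitin receptors and the lid. In Drosophila many subunits have a second gene that is active in the male germ line, and the copy Prosalpha6T is known to be needed for sperm formation and male fertility.

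The labels were first checked on genes of known sex and genotype. The 11 testis markers measured were all higher in males, with a summed level of 15.12 to 15.62 in males and 8.16 to 8.72 in females on the log2 scale. All 9 ovary and egg markers were lower in males, with sums of 9.06 to 9.60 in males and 14.67 to 15.47 in females. Yp1, a yolk protein gene, was 336-fold lower in males, and Mst84Da, a sperm tail gene, was 225-fold higher. All 6 accessory gland genes were higher in males, among them Acp26Aa, a seminal fluid protein gene (304-fold). Hr96 was 3.35-fold higher with over-expression than in Act5C-GAL4 controls over both sexes (log2 difference 1.74 ± 0.22 SE, adjusted p = 6.3e-05). In the flies labelled as knockdown Hr96 did not differ from arm-GAL4 controls at the threshold (log2 difference 0.01 ± 0.22 SE, adjusted p = 0.999), so "knockdown" is used below as a label only. One array stood apart for these genes: replicate 2 of the over-expression males had Hr96 at 7.61, where the other replicates had 9.28 and 9.39, and it also had the lowest proteasome subunit levels described below. The values it moves most are given below with and without it.

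Males and females differed in nearly the whole proteasome, and the copies and the other subunits went opposite ways. All 14 copies were higher in males, with a median difference of 3.13 on the log2 scale, where 19.8% of all 18769 probe sets were called higher. Of the 26 subunits that are not copies, 23 were lower in males and 0 were higher, with a median of -0.57, where 49.4% of all probe sets were called lower and the median of all was -0.17. A call means a limma p below 0.05 after Benjamini-Hochberg adjustment over all probe sets, for the mean difference over the 4 genotypes (12 arrays of each sex). These p-values measure the spread between the arrays of a group. In whole animals, fewer cells of a type and less RNA per cell cannot be told apart, and the part of the testis and ovary markers in these differences was not tested.

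**Figure D1:**
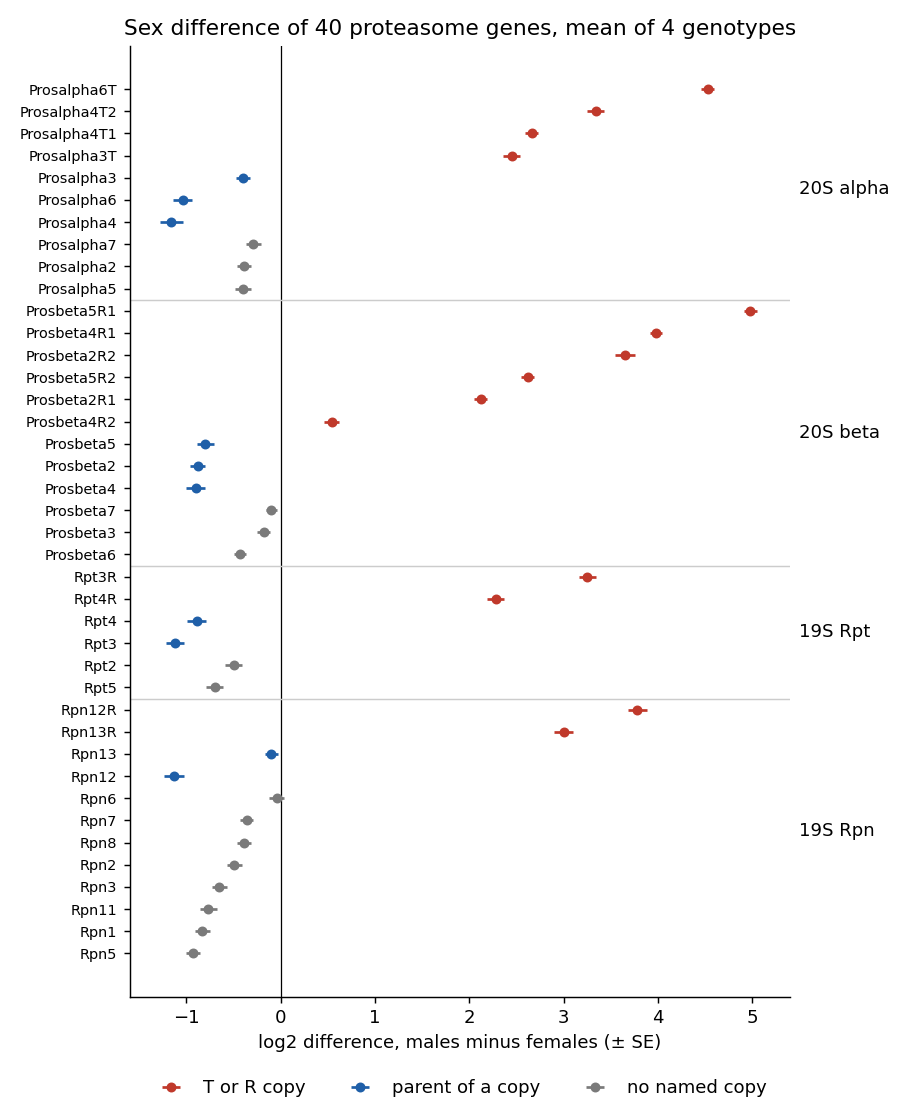
Log2 difference of 40 proteasome genes, males minus females, as the mean of 4 genotypes with its standard error (horizontal axis), by subunit class. The 14 copies lie between 0.54 and 4.98, right of 0, and the 26 other subunits lie between -1.16 and -0.04, left of 0.

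Among the alpha subunits, Prosalpha6T, the copy of Prosalpha6, had log2 intensities of 8.92 to 9.53 (median 9.33) in males and 4.53 to 5.28 (median 4.79) in females. It was 23.1-fold higher in males (log2 difference 4.53 ± 0.07 SE, adjusted p = 2.8e-24), and every male array lay above every female array. Both copies of the X-linked gene Prosalpha4 lie on autosomes and were also higher in males. Prosalpha4T2 ranged from 7.90 to 8.56 (median 8.38) in males and from 4.47 to 5.35 (median 5.01) in females, a 10.1-fold difference (adjusted p = 4.3e-19). Prosalpha4T1 ranged from 6.84 to 7.49 (median 7.39) in males and from 4.40 to 5.01 (median 4.65) in females, a 6.34-fold difference (adjusted p = 2.5e-19). Prosalpha3T, the copy of Prosalpha3, was between 6.94 and 7.71 (median 7.51) in males and between 4.73 and 5.48 (median 4.94) in females. It differed 5.48-fold (adjusted p = 7.3e-17), and the sexes did not overlap in any of these alpha copies.

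The beta copies held both the largest and the smallest of the 14 differences. Prosbeta5R1 copies Prosbeta5, the subunit of the chymotrypsin-like site. Its log2 intensity was 9.01 to 9.55 (median 9.33) in males and 4.01 to 4.63 (median 4.36) in females. It was 31.5-fold higher in males (log2 difference 4.98 ± 0.07 SE, adjusted p = 2.2e-24). The other copy of that subunit, Prosbeta5R2, had 6.49 to 8.04 (median 7.08) in males and 4.29 to 4.83 (median 4.52) in females, a 6.15-fold difference (adjusted p = 1.8e-19). Its male values were spread more widely than those of any other copy, along the lines of genotype described further on.

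Prosbeta2, the subunit of the trypsin-like site, also has 2 copies here. Prosbeta2R2 had 7.97 to 8.89 (median 8.45) in males and 4.24 to 5.36 (median 4.90) in females, a 12.6-fold difference (adjusted p = 2.4e-18). Prosbeta2R1, one of only 2 copies on the X chromosome, had 7.50 to 8.01 (median 7.65) in males and 5.28 to 5.85 (median 5.62) in females, a 4.35-fold difference (adjusted p = 2.2e-17). The copies of Prosbeta4, a beta subunit with no proteolytic site, stand next to each other on 2L with 1 gene between them, and their values parted. Prosbeta4R1 had 8.13 to 8.78 (median 8.32) in males and 4.14 to 4.70 (median 4.39) in females, a 15.8-fold difference (adjusted p = 6.8e-24). Prosbeta4R2 had 3.79 to 5.01 (median 4.24) in males and 3.36 to 4.05 (median 3.73) in females. Its difference of 0.54 on the log2 scale passed the test (adjusted p = 2.1e-06), but the sexes overlapped, and it was the 1 copy of the 14 in which they did.

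In the 19S cap, Rpn12R copies the lid subunit gene Rpn12 and had 8.21 to 8.64 (median 8.46) in males and 4.21 to 5.15 (median 4.67) in females, a 13.7-fold difference (adjusted p = 2.8e-19). Rpn13R, the second copy on the X chromosome, is that of the ubiquitin receptor gene Rpn13. It had 7.25 to 7.83 (median 7.49) in males and 3.96 to 4.96 (median 4.47) in females, a 7.99-fold difference (adjusted p = 5.9e-18). Copies of ATPase genes went the same way. Rpt3R had 7.88 to 8.56 (median 8.27) in males and 4.64 to 5.59 (median 5.05) in females, a 9.54-fold difference (adjusted p = 9.4e-20). Rpt4R had 7.05 to 7.98 (median 7.63) in males and 4.86 to 5.54 (median 5.35) in females, a 4.87-fold difference (adjusted p = 1.2e-16).

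For 13 of the 14 copies every male array was above every female array, as was the case for 11.9% of all probe sets. Female levels of the copies were low: their medians ran from 3.73 to 5.62, where the lower quartile of an array was 4.38 to 4.64. The female means of Prosbeta5R1 (4.34) and Prosbeta4R2 (3.74) lay under every array's lower quartile, and so did the male mean of Prosbeta4R2 (4.28). The size of these folds thus rests on values that may be mostly background, for Prosbeta4R2 in both sexes. The shared probe set of Prosalpha1 and its copy Prosalpha1R showed neither pattern, with a difference of -0.09 ± 0.07 SE (adjusted p = 0.226).

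**Figure D2:**
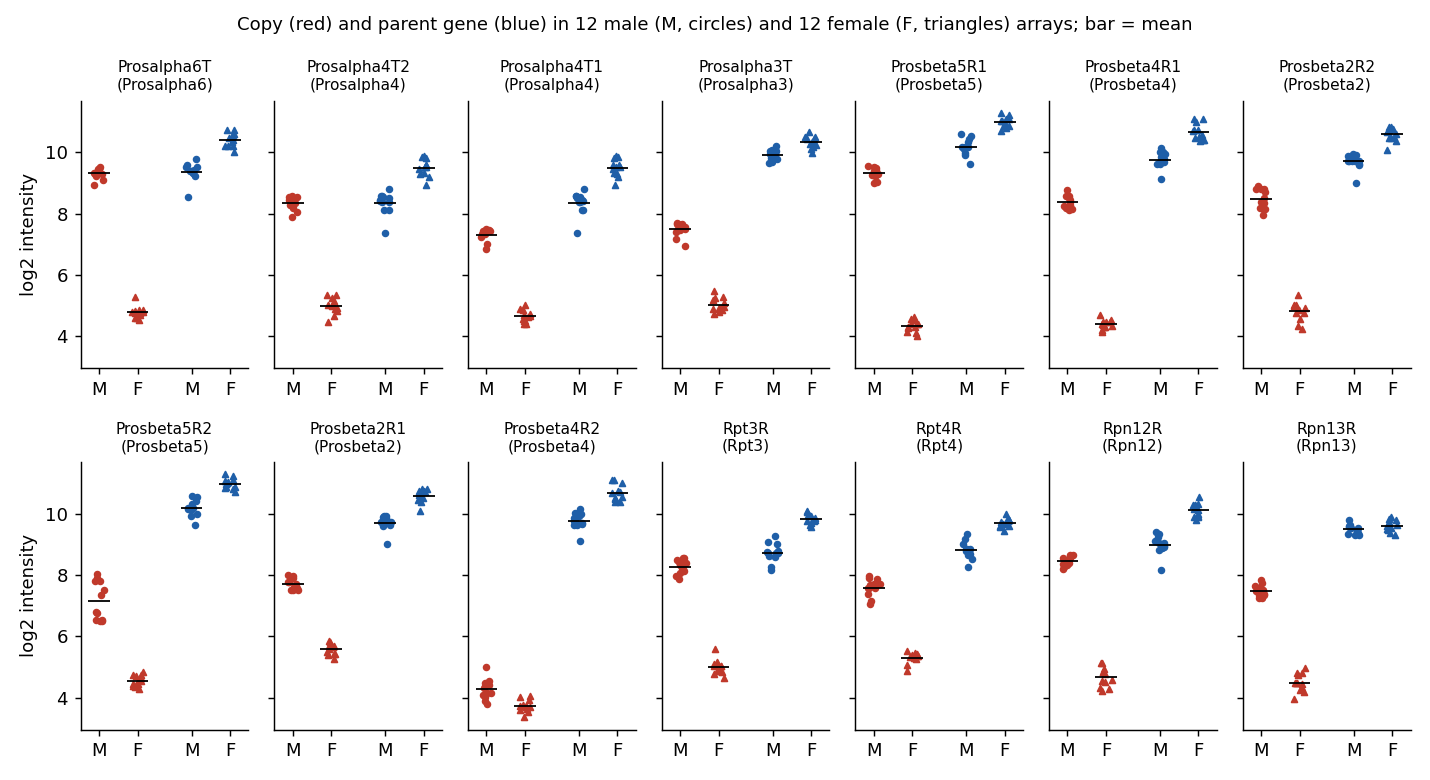
Log2 intensity of each of the 14 copies (red) and of its parent gene (blue, named in parentheses) in 12 male arrays (M, circles) and 12 female arrays (F, triangles), with bars at the means. The copies are higher in males and the parents lower in males, except Rpn13 at -0.10, which did not pass the test; levels of different probe sets are not comparable with each other.

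The 10 parents of a copy were lower in males in 9 cases, with differences of -1.16 to -0.10 and a median of -0.90. Prosalpha4 had 7.38 to 8.80 (median 8.42) in males and 8.95 to 9.87 (median 9.53) in females. It was 2.23-fold lower in males (log2 difference -1.16 ± 0.12 SE, adjusted p = 8.2e-09). Rpn12 had 8.15 to 9.41 (median 9.00) in males and 9.81 to 10.53 (median 10.13) in females, a 2.19-fold lower level (adjusted p = 3e-09). For Rpt3 the range was 8.16 to 9.28 (median 8.72) in males and 9.58 to 10.08 (median 9.83) in females, a 2.17-fold lower level (adjusted p = 6.3e-10). The sexes did not overlap in these 3 parents. Prosalpha6 completed the set of 4 that were at least 2-fold lower, with 8.54 to 9.79 (median 9.39) in males and 10.02 to 10.73 (median 10.42) in females (2.06-fold, adjusted p = 1.4e-09). Without replicate 2 of the over-expression males 3 of the 26 subunits were at least 2-fold lower. The share of all probe sets at least 2-fold lower was not counted. Both catalytic subunit genes with a probe set were lower in males: Prosbeta2 by 0.88 (1.83-fold lower, adjusted p = 2.6e-09) and Prosbeta5 by 0.80 (1.75-fold lower, adjusted p = 3e-08), as differences on the log2 scale. Prosbeta4 (-0.90) and Rpt4 (-0.89) were close to them, and Prosalpha3 was lower by less (-0.40, adjusted p = 1.7e-05). The exception was Rpn13, with 9.31 to 9.79 (median 9.49) in males and 9.29 to 9.90 (median 9.56) in females (log2 difference -0.10 ± 0.07 SE, adjusted p = 0.2).

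The 16 subunits with no named copy were lower in males in 14 cases, with a median of -0.42. The lowest difference was that of Rpn5, a lid subunit gene, which had 9.20 to 9.89 (median 9.71) in males and 10.26 to 10.88 (median 10.62) in females (-0.93 ± 0.07 SE, adjusted p = 8.4e-11). Rpn1, a scaffold subunit that receives ubiquitin shuttle proteins, differed by -0.83, and Rpn11, the lid's deubiquitinating enzyme, by -0.77. At the other end Rpn6, a lid subunit gene, had 10.44 to 10.96 (median 10.74) in males and 10.52 to 11.05 (median 10.79) in females (-0.04 ± 0.08 SE, adjusted p = 0.641). Prosbeta7 did not pass either (-0.10 ± 0.06 SE, adjusted p = 0.162). The rest ran from -0.70 for Rpt5 to -0.18 for Prosbeta3, and all of these passed the test. Rpn6, Prosbeta7 and the parent Rpn13, which did not pass, were all read by probe sets with the suffix _s_at. That suffix marks probes that can match several transcripts, and 5 of the 40 members have it. The other members with it, Prosbeta5 and Rpn12R, passed, and the part of the probe sets in these results was not tested.

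By class, the alpha subunits that are not copies were lower in males in 6 of 6 cases (median -0.40), from Prosalpha4 at -1.16 to Prosalpha7 at -0.29. Of the beta subunits 5 of 6 were lower (median -0.62), from Prosbeta4 at -0.90 to Prosbeta7 at -0.10. All 4 Rpt ATPases measured were lower (median -0.80), from Rpt3 at -1.12 to Rpt2 at -0.50. Of the Rpn subunits 8 of 10 were lower (median -0.57), from Rpn12 at -1.13 to Rpn6 at -0.04. In 11 of these 26 subunits every male array was below every female array, against 20.7% of all probe sets.

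Parents of a copy were further down in males than the subunits with no named copy, as a description of these genes and without a test, since genes are not replicates. Of the 10 parents 8 had a difference below -0.75, against 3 of the 16 others (Rpn5, Rpn1 and Rpn11). The order of the medians was the same in each diet batch, at -0.86, -1.05 and -0.83 for parents in batches 1, 2 and 3 and at -0.38, -0.56 and -0.36 for the others. Prosalpha4, Rpt3 and Rpt4 are on the X chromosome and no subunit without a copy is. The 7 autosomal parents taken alone had a median of -0.88, and the part of the chromosome in these differences was not tested. With each gene centred on its own mean, the median parent stood at -1.11 to -0.06 in male arrays and 0.13 to 0.74 in female arrays, without overlap. The median subunit with no named copy stood at -0.50 to 0.06 in male arrays and -0.03 to 0.48 in female arrays.

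**Figure D3:**
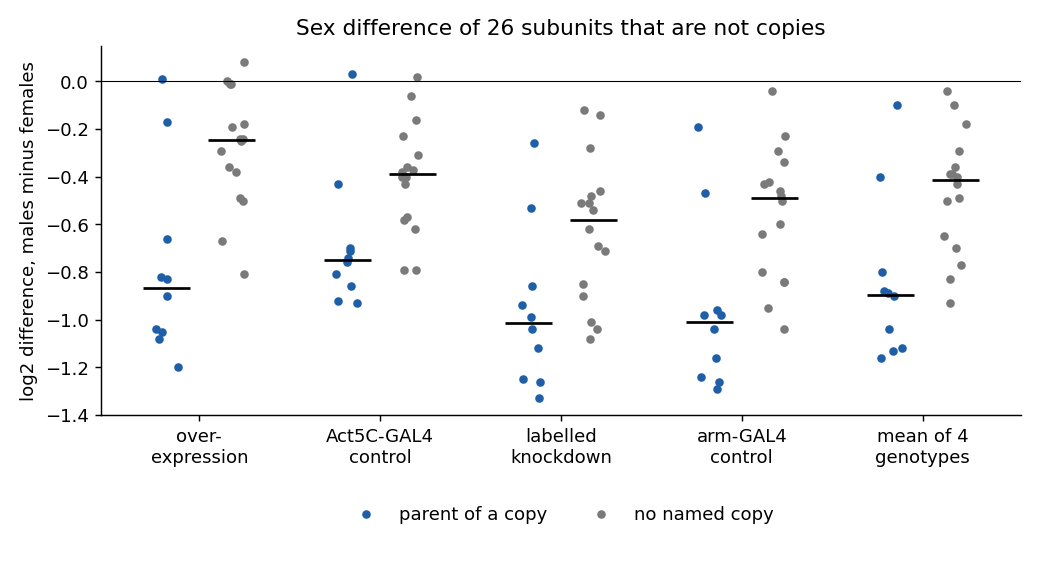
Log2 difference, males minus females (vertical axis), of the 10 parents of a copy (blue) and the 16 subunits with no named copy (grey) in each genotype and in the mean of 4 genotypes, with bars at the medians. The medians of the mean are -0.90 for parents and -0.42 for the others, and in each genotype the parents' median is the lower one.

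The balance between a copy and its parent differed between the sexes in all 14 pairs. The log2 ratio of copy to parent within an array was taken for each pair, and only its difference between the sexes is read, because probe sets differ in how brightly they respond. The difference, males minus females, ran from 1.45 for Prosbeta4R2 to 5.78 for Prosbeta5R1. The ratio did not overlap between the sexes in any of the 14 pairs. Each ratio joins a copy already found higher in males to a parent found lower, or not called in the case of Rpn13. The share of other pairs of probe sets without overlap was not counted. For Prosbeta5R1 over Prosbeta5 the log2 ratio was -1.38 to -0.07 (median -0.90) in males and -7.13 to -6.38 (median -6.51) in females. Prosalpha6T over Prosalpha6 had -0.87 to 0.92 (median -0.08) in males and -5.93 to -5.18 (median -5.63) in females, a difference of 5.57. Rpn12R over Rpn12 followed at 4.91 and Prosbeta4R1 over Prosbeta4 at 4.88. At the low end, Prosbeta4R2 over Prosbeta4 had -6.04 to -4.91 (median -5.47) in males and -7.55 to -6.36 (median -6.91) in females. In this pair the parent's own difference (-0.90) was larger in size than that of the copy (0.54), which was near background in both sexes. In a two-sided permutation test of each pair over the 24 arrays, p was 1e-05, the smallest that 100000 resamples can give, for every pair except Rpn12R with Rpn12 (p = 2e-05). These p-values are not adjusted for the 14 pairs. As no ratio overlapped between the sexes, 1e-05 and 2e-05 differ only by the random draw of resamples. Sex labels were shuffled over all 24 arrays, without regard to genotype or diet batch.

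The sex difference of the copies was present in each genotype. Copies higher in males numbered 13 of 14 with over-expression (14.1% of all probe sets), 13 in Act5C-GAL4 controls (15.5%), 14 in the labelled knockdown (17.3%) and 14 in arm-GAL4 controls (16.4%). The copy missed in the first and second of these was Prosbeta4R2. It had 4.04, 3.79 and 4.16 in over-expression males against 3.75, 4.03 and 3.93 in over-expression females (difference 0.09, adjusted p = 0.676). In Act5C-GAL4 controls it had 4.10, 4.15 and 3.91 in males against 3.71, 3.70 and 4.05 in females (0.24, adjusted p = 0.216). The sexes parted in the arm-GAL4 genotypes, with 4.42, 4.39 and 5.01 in labelled knockdown males against 3.78, 3.54 and 3.64 in labelled knockdown females (0.96, adjusted p = 1.6e-05). The arm-GAL4 control males had 4.47, 4.32 and 4.54 against 3.60, 3.36 and 3.74 in arm-GAL4 control females (0.88, adjusted p = 5.3e-05). The difference of the sex effect between the 2 controls did not pass (Act5C-GAL4 minus arm-GAL4 -0.64, adjusted p = 0.778), so no difference between genotypes was shown for Prosbeta4R2.

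Among the 26 other subunits, 12 were lower in males with over-expression (32.4% of all probe sets), 19 in Act5C-GAL4 controls (34.3%), 22 in the labelled knockdown (31.2%) and 22 in arm-GAL4 controls (33.1%). The count with over-expression was 10 without replicate 2 of the over-expression males. The number at least 2-fold lower among the 26 was 4 with that array and 0 without it, and this share of all probe sets was not counted. The median of the 26 was -0.37 with that array, where the median of all probe sets was -0.18, and -0.13 without it. Shares and medians of all probe sets without that array are not given here. Whether the 26 then stood lower than all probe sets with over-expression was thus not shown.

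No proteasome gene was called in either manipulation of Hr96. With over-expression, 0 of 40 passed in females (0.874% of all probe sets), 0 in males (1.17%) and 0 in the mean of both sexes (1.88%). At an unadjusted p below 0.05 there were 0 in females, 3 in males and 0 in the mean, where 16.4%, 12.8% and 14.3% of all probe sets had one. The differences farthest from 0 in females were those of Rpn13R at 0.26 ± 0.19 SE (adjusted p = 0.53) and Rpt5 at -0.28 ± 0.19 SE (adjusted p = 0.468). In males they were Rpt4R at 0.41 ± 0.17 SE (adjusted p = 0.314) and Prosalpha6 at -0.38 ± 0.19 SE (adjusted p = 0.416). Without replicate 2 of the over-expression males Prosalpha6 was at -0.09 and Rpt4R at 0.46. Averaged over the sexes they were Rpn13R at 0.26 (adjusted p = 0.408) and Prosalpha6 and Rpt5 at -0.24 each (adjusted p = 0.43 and 0.426). Without the same array these were 0.25 for Rpn13R, -0.10 for Prosalpha6 and -0.13 for Rpt5.

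In over-expression males the copies had a median difference of 0.21 from Act5C-GAL4 males, with 10 of 14 positive, and the 10 parents had a median of -0.16, with 2 of 10 positive, where 55.2% of all probe sets were positive. Rpt4R had 7.87, 7.57 and 7.57 in over-expression males against 7.05, 7.59 and 7.15 in Act5C-GAL4 males, so the groups overlapped. Prosalpha4 had 8.54, 7.38 and 8.37 in over-expression males against 8.80, 8.11 and 8.44 in Act5C-GAL4 males, with its lowest value in replicate 2. Without that array the parents' median was 0.13, with 9 of 10 positive, and the copies' median was 0.20, so the parents' direction rests on 1 array. Over-expression effects did not differ between the sexes for any of the 40 at the threshold (0.165% of all probe sets, and 1 of 40 at an unadjusted p below 0.05, against 14.5% of all). The largest differences of effect, males minus females, were 0.48 for Prosalpha3T (adjusted p = 0.379) and -0.28 for Prosalpha4 (adjusted p = 0.689). Without replicate 2 of the over-expression males Prosalpha4 was at 0.08 and Prosalpha3T at 0.43. The 26 subunits that are not copies had 14 of 26 positive with that array (median 0.07), where 57.7% of all probe sets were positive. Without that array 26 of 26 were positive (0.02 to 0.52, median 0.26). The shares of all probe sets that were positive without it are not given here, for these subunits or for the parents above.

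The labelled knockdown gave 0 of 40 in females (0.0213% of all probe sets), 0 in males (0.0266%) and 0 in the mean of both sexes (0.0586%), with 0, 1 and 0 at an unadjusted p below 0.05, against 4.24%, 2.18% and 3.31% of all probe sets. In females all 26 subunits that are not copies had a positive difference from arm-GAL4 controls, between 0.01 and 0.26, with a median of 0.12, where 50.5% of all probe sets were positive. Prosbeta6, a beta subunit gene with no proteolytic site, had the largest at 0.26 ± 0.13 SE (adjusted p = 0.983), and Prosbeta5R1 had the lowest of the 40 at -0.24 ± 0.15 SE (adjusted p = 0.983). By diet batch, 19, 25 and 25 of the 26 were positive, with medians of 0.05, 0.15 and 0.17. In males 23 of the 26 were positive, with a median of 0.08, against 48.9% of all probe sets. These genes share their movement from array to array, as given below, so their signs are not independent of each other.

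The largest differences in labelled knockdown males were Prosbeta5R2 at 0.36 ± 0.14 SE and Prosbeta2R2 at -0.28 ± 0.23 SE (adjusted p = 1 for both). Averaged over the sexes they were Prosbeta4 at 0.22 and Prosbeta5R1 at -0.14 (adjusted p = 0.999 for both). For the difference of effects between sexes, 0 of 40 passed (0.032% of all probe sets, and 1 of 40 at an unadjusted p below 0.05, against 2.73% of all), with Prosbeta5R2 at 0.53 and Prosbeta2R2 at -0.47 (adjusted p = 0.999 for both).

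The single genotype call was between the 2 driver lines without an Hr96 transgene. Prosbeta5R2 was 1.4-fold lower in Act5C-GAL4 than in arm-GAL4 controls over both sexes (log2 difference -0.49 ± 0.10 SE, adjusted p = 0.0158), 1 of 40 members, where 0.868% of all probe sets were called. Males had 6.76, 6.80 and 6.53 in Act5C-GAL4 controls against 7.81, 7.51 and 7.36 in arm-GAL4 controls. Females had 4.34, 4.72 and 4.64 in Act5C-GAL4 controls against 4.83, 4.75 and 4.45 in arm-GAL4 controls. The groups were apart in males and overlapped in females. Contrasts within each sex, from the same fit on all arrays, were added after the data were seen: the difference was -0.87 ± 0.14 SE in males (1.82-fold, adjusted p = 0.00216, 0.73% of all probe sets) and -0.11 ± 0.14 SE in females (adjusted p = 0.999, 0.17% of all probe sets). The difference between the sexes was -0.76 ± 0.20 SE and did not pass (adjusted p = 0.342, 0.0852% of all probe sets called).

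The transgenic males of each driver lay on the same side as their controls, though labelled knockdown males were above their arm-GAL4 controls as given above. Prosbeta5R2 was at 6.55, 6.50 and 6.49 in over-expression males and at 8.04, 7.89 and 7.82 in labelled knockdown males. All 6 male arrays with Act5C-GAL4 were thus at 6.49 to 6.80, below all 6 male arrays with arm-GAL4 at 7.36 to 8.04. Such a split of the male arrays was not particular to this copy. Prosbeta4R1 had 8.13 to 8.27 against 8.37 to 8.78, and Prosbeta4R2 had 3.79 to 4.16 against 4.32 to 5.01. The probe set shared by Prosalpha1 and Prosalpha1R had 10.73 to 11.05 against 11.28 to 11.41. The share of all probe sets with this split was not counted. Driver, chromosome background and line cannot be told apart in this design. The call of Prosbeta5R2 in the mean of both sexes was lost without replicate 1 of the Act5C-GAL4 females (adjusted p = 0.0616), replicate 3 of the Act5C-GAL4 males (0.0578), replicate 1 of the arm-GAL4 females (0.0556) or replicate 1 of the arm-GAL4 males (0.0566). In males alone it was kept with each control array left out in turn (adjusted p = 0.00153 to 0.0226) but not in a fit of the control arrays alone (0.0604).

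In the same male comparison all 14 copies had a negative difference, with a median of -0.34, and 7 of 14 had an unadjusted p below 0.05, where 46.7% of all probe sets were positive and 9.66% had such a p. After Prosbeta5R2 the lowest were Prosbeta2R2 at -0.60 (adjusted p = 0.338) and Rpt4R at -0.52 (adjusted p = 0.235). Of the 26 other subunits 17 were positive, with a median of 0.10, up to Rpt3 at 0.37 (adjusted p = 0.588). The summed level of the testis markers was 15.12 to 15.29 in Act5C-GAL4 males and 15.15 to 15.54 in arm-GAL4 males, and its part in these differences was not tested. The probe set shared by Prosalpha1 and Prosalpha1R was also lower in Act5C-GAL4 controls (-0.48 ± 0.09 SE, adjusted p = 0.00983).

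**Figure D4:**
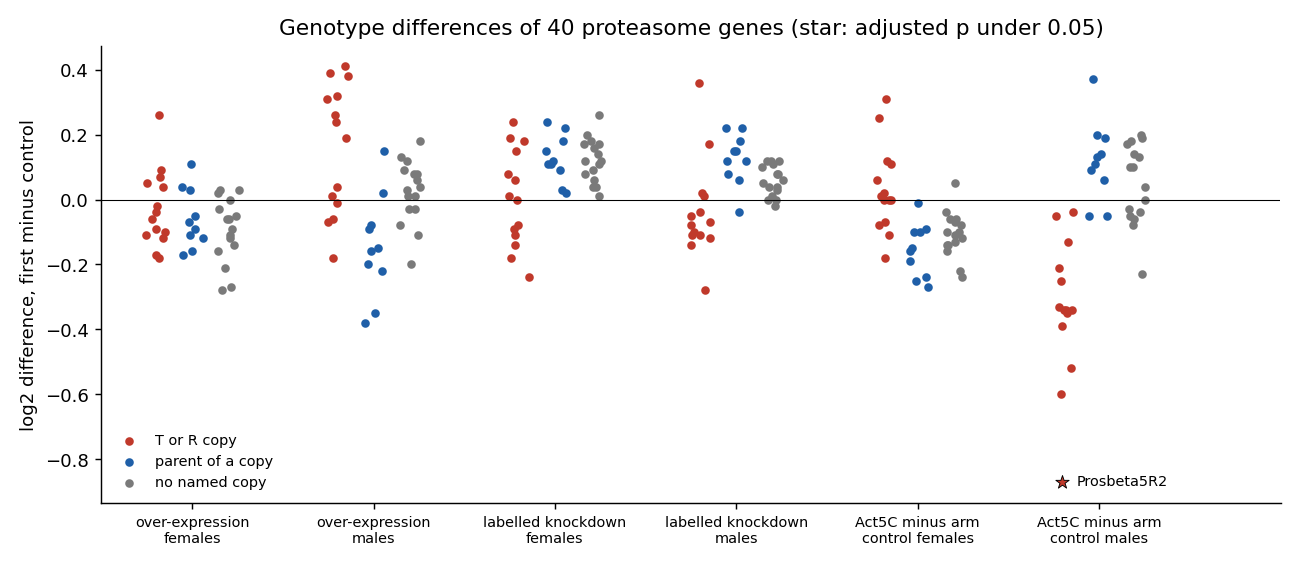
Log2 difference of the 40 proteasome genes (vertical axis) for over-expression minus Act5C-GAL4 control, labelled knockdown minus arm-GAL4 control, and Act5C-GAL4 minus arm-GAL4 control, in females and males. Points are genes coloured by kind, and the star is the 1 gene called, Prosbeta5R2 at -0.87 in males.

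The subunits that are not copies moved together from array to array. After each group mean was removed, the median correlation over the 325 pairs of these 26 genes was 0.82, with a range of 0.28 to 0.97, across 24 arrays. For the 1418 named genes whose mean level was at least that of the lowest of the 26, the median over pairs was 0.0597. Between pairs of copies it was 0.203, and between a copy and another subunit 0.0764. Without the over-expression arrays (18 left) it was 0.746 for the 26. These correlations are descriptions, since all genes of an array share its RNA and labelling. The 1418 genes were chosen by the level of the 26 subunits, not by that of the copies. Copies were low in female arrays, as given above, and the part of this in their correlations was not tested.

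The mean deviation of the 26 differed most between arrays in over-expression males. Replicate 2 of the over-expression males was lowest, at 0.42 below its group mean, with 0 of 26 subunits above the group mean. In replicate 1 of the same group it was 0.28 above, with 26 of 26 above, and replicate 1 of the Act5C-GAL4 males was similar at 0.27 above. Within over-expression males the median SD of the 26 was 0.386, against 0.145 for all probe sets and 0.098 for the 14 copies. In the other 7 groups the median SD of the 26 was 0.082 to 0.244. The copies of the same array stayed near their group mean, at -0.02 in replicate 2 of the over-expression males.

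**Figure D5:**
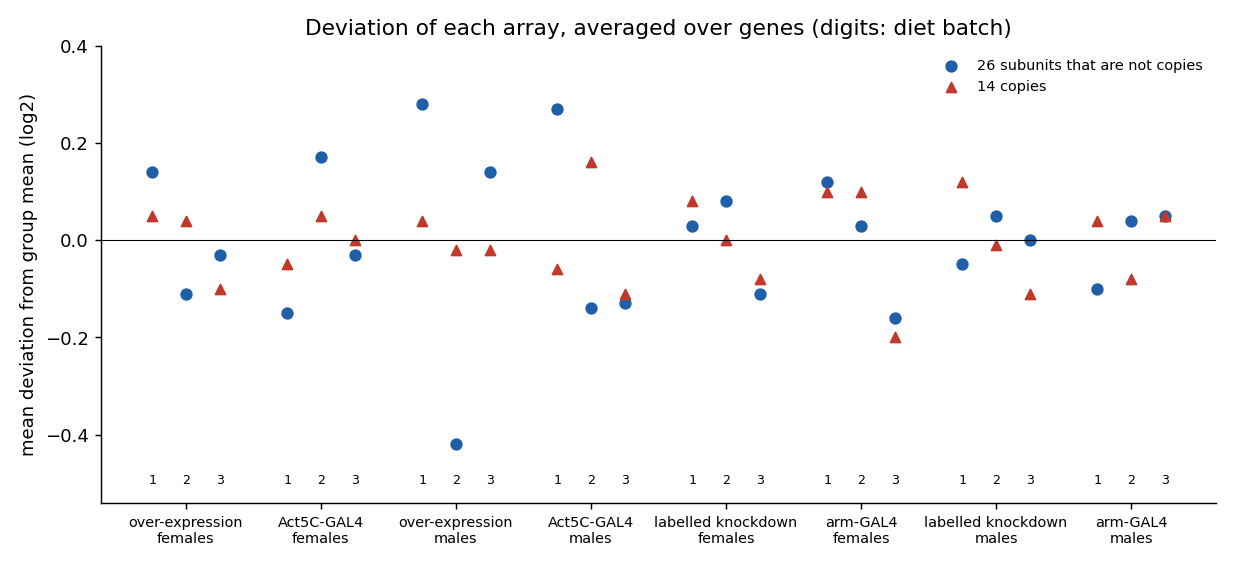
Deviation of each array from its group mean on the log2 scale (vertical axis), averaged over the 26 subunits that are not copies (blue circles) and over the 14 copies (red triangles), for 3 arrays in each of 8 groups, with diet batch numbers at the bottom. Replicate 2 of the over-expression males is lowest for the 26 subunits at -0.42, where its copies are at -0.02.

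Genes that work with the proteasome were followed by lists, whose counts stand beside 19.8% higher and 49.4% lower in males among all probe sets. Of 11 assembly factors and regulators measured, 5 were higher and 5 lower in males (median -0.10), so the share that was lower was near that of all probe sets. Uch-L5R, a relative of the proteasome deubiquitinase gene Uch-L5, was 6.77-fold higher in males (adjusted p = 5e-20), and PI31, which encodes a proteasome regulator needed in sperm formation, was 3.04-fold higher (adjusted p = 2.5e-17). PI31 had 9.97 to 10.29 (median 10.07) in males and 8.23 to 8.74 (median 8.53) in females, without overlap. REG, the gene of an activator that binds the 20S core in place of the 19S cap, was 2.58-fold lower in males (adjusted p = 2.4e-14), and CG13319 was 1.88-fold lower (adjusted p = 7.8e-11). Pomp, the gene of the core maturation factor, differed by -0.10 (adjusted p = 0.398).

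Ubiquitin genes and shuttles were mixed, with 3 higher and 6 lower of 10 (median -0.35), also near the shares of all probe sets. CG10694 was 5.66-fold higher in males and its relative Rad23, which encodes a shuttle that carries substrates to the proteasome, 2.26-fold lower (adjusted p = 9.9e-18 and 2.8e-10). Of the polyubiquitin and ubiquitin fusion genes, Ubi-p63E was 2.06-fold higher in males and RpL40 1.69-fold lower. The list of transcription factors and their regulators, which includes cnc, the fly relative of a factor that induces proteasome genes in mammals, had 0 higher and 4 lower of 5 (median -0.24). Within it cnc differed by -0.17 (adjusted p = 0.0614), Pngl by -0.87 (adjusted p = 9.1e-12), Keap1 by -0.55 (adjusted p = 4e-08), crc by -0.24 (adjusted p = 0.00304) and maf-S by -0.22 (adjusted p = 0.00636).

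Of 8 genes of ubiquitin ligases linked to caspase control in sperm, 5 were higher and 3 lower in males (median 1.90). The largest were Roc1b (14.7-fold) and klhl10 (14.3-fold), genes of a ring protein and a substrate adaptor of the Cul3 ligase. SkpD was 4.41-fold higher. The F-box gene ntc, whose protein binds PI31, had 9.46 to 9.97 (median 9.77) in males and 6.55 to 7.29 (median 6.99) in females, a 6.85-fold difference (adjusted p = 7e-20). The 3 that were lower were SkpA (-1.44), Roc2 (-0.85) and dbo (-0.56). The COP9 signalosome, a complex built like the 19S lid, had 1 gene higher and 7 lower in males of 9 measured (median -0.66). CSN1a was 13.1-fold higher in males, with 8.65 to 9.35 (median 8.95) in males and 5.05 to 5.50 (median 5.25) in females (adjusted p = 4e-22). CSN8 (2.19-fold), alien (2.12-fold) and CSN4 (1.97-fold) were lower, and CSN7 did not pass (-0.05, adjusted p = 0.415). In the 2 manipulations of Hr96, 0 genes of these 5 lists passed in the mean of both sexes.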

How the data were processed

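Total RNA of whole flies was measured on Affymetrix arrays. The deposited values are linear intensities made with RMA, per the submitters' processing notes; RMA corrects background, normalizes by quantiles and summarises probes, and its version is not given in the sources used here. Column medians were not equal, at 52.9 to 60.1 in female and 62.8 to 65.5 in male arrays, with column means of 290 to 310. The deposited arrays thus did not share 1 distribution, and any scaling after RMA is not known. Arrays of a group correlated at 0.974 to 0.992. RMA compresses large differences, and the number of arrays limits the precision. Log2 was taken with no pseudocount, and 183 control probe sets were left out, leaving 18769. Gene names came from the platform annotation and chromosomes from the Release 6 gene table. Every member had 1 probe set. No sequence was used here, and coordinates of that table served only to count the genes between Prosbeta4R1 and Prosbeta4R2.

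Differences were tested two-sided with limma 3.58.1 (R 4.3.3; lmFit, eBayes) on all 24 arrays with 1 mean per group, as contrasts of group means; p-values were adjusted by Benjamini-Hochberg across the whole table, with a threshold of 0.05. Copy-to-parent ratios were tested by permutation with Python 3.11.15, numpy 2.4.6, pandas 2.3.3 and scipy 1.17.1, and plots used matplotlib 3.10.9. On simulated data for the sex comparison over 18769 probe sets, 86 of 100 changes of 0.5 and 98 of 100 of 1.0 on the log2 scale were called, with 9 false calls. The simulated probe sets varied independently and few differed by sex, unlike the data. These figures check the code and are not error rates of the reported comparison.

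A replicate number stands for a diet batch, per the labels, and so pairs the samples; deviations of same-batch arrays correlated at -0.07 to 0.57, over 0.1 in 9 of 12 pairs. The reported fit has no batch term, and adding the batch as a block was tried. Others were a common median, quantile normalization (of all arrays, or of each sex), a mean log2 of at least 5, eBayes with trend and robust, the compared arrays alone, a 2-fold minimum, and each array left out.

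All members are accounted for: copies by name, other subunits by the highest and lowest sex difference in a class and the catalytic subunits, every genotype call or else the largest difference of each sign, and up to 4 called genes of each pathway list plus ntc, PI31, Pomp, REG and cnc. Members, lists and markers were chosen with earlier results of these data known. Listed genes with no probe set named here (w, Ecm29, Uba1, Ubqn, loopin-1) were not analysed.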

Additional observations from a re-analysis of the deposited data

How the results depend on the processing

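For the mean sex difference of single members at the adjusted p alone, 1234 of 1239 values under an alternative kept their direction and their side of the threshold; this count leaves out the 2-fold minimum, the single genotypes and the comparison of controls, which follow. The other 5 passed where they had not: Prosbeta7, Rpn13 and Rpn6 with arrays at a common median (-0.29, -0.29 and -0.23), and Prosbeta7 and Rpn13 with quantile normalization over all arrays (-0.17 and -0.19). The common median moved the median of all probe sets to -0.35, from -0.17 as reported, and the higher share of sex calls to 18.3%, from 28.6%. All 26 subunits that are not copies were then lower in males (median -0.76), and all 14 copies higher. With the common median 70.6% of all probe sets were called lower in males, against 49.4% as reported. The number called higher was 2963 probe sets, against 3709 as reported. With a 2-fold minimum, 4 of the 26 were called lower and 13 copies higher, and the shares of all probe sets at this minimum were not counted. Prosbeta4R2 dropped out with a mean log2 of at least 5, which leaves 13 copies. The count for Act5C-GAL4 against arm-GAL4 controls was 0 with the compared arrays alone and 0 to 1 with each array left out. With each array left out, subunits lower in males numbered 23 in the mean, 10 to 15 with over-expression, 13 to 21 in Act5C-GAL4 controls, 21 to 23 in the labelled knockdown and 19 to 23 in arm-GAL4 controls, and the manipulations of Hr96 kept 0 calls. Under the other alternatives these were 10 to 16 with over-expression, 15 to 23 in Act5C-GAL4 controls, 22 to 25 in the labelled knockdown and 20 to 25 in arm-GAL4 controls. With the diet batch as a replicate block, counts were 14 copies higher and 23 subunits lower in males and 1 member between controls (lowest adjusted p = 0.0101), and it changed no call among the members. The copy-to-parent result kept its direction and its side of the threshold in 56 of 56 recomputations, in controls alone and without each batch (permutation p = 0.00016 to 0.00216). Over all arrays no copy-to-parent ratio overlapped between the sexes, so no smaller set of these arrays could give another outcome. These recomputations are thus no further check, and their p-values are the smallest that such sets can give. The lowest probe set per gene could not be tried as an alternative, since every member had 1 probe set. Low female signal limits the size of the copies' folds, and 3 arrays per group limit the genotype comparisons.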
